A study of Mus musculus with 15 samples.

Results

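Complexes II to V of the mitochondrial respiratory system were examined through their nuclear-encoded subunit genes. Members were taken by symbol and not by any measured value: Sdha to Sdhd, and every gene whose symbol begins with Uqcr, Cox4, Cox5, Cox6, Cox7, Cox8 or Atp5. The rule gave 47 of the 21154 genes that could be named on the array, with 4 in complex II, 8 in complex III, 18 in complex IV and 17 in complex V. They were read by 70 of the 28026 named probes, and the probe with the highest mean Cy5 signal over all arrays stood for its gene. A rule by symbol takes in Cox7a2l, which helps complexes III and IV assemble into supercomplexes, and leaves out cytochrome c1 (Cyc1) and the subunits that mitochondrial DNA encodes.

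Complex II, succinate dehydrogenase, passes electrons from the citric acid cycle to ubiquinone, and complex III passes them on to cytochrome c. Complex IV, cytochrome c oxidase, hands them to oxygen, and complex V, the ATP synthase, uses the proton gradient built along the way to make ATP. Several complex IV subunits exist in more than a single form: Cox6a2, Cox7a1 and Cox8b are the forms of heart and skeletal muscle, while Cox6a1, Cox7a2 and Cox8a are made in most tissues. Skeletal muscle is rich in mitochondria, and muscle attaches along the femoral shaft.

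RNA came from the femoral midshaft of 15 male C57BL/6J mice, and each mouse was a separate sample. The labels give the mice as 9 weeks old, which is not the age at sampling, since by the study's methods they were older when the bones were taken. The 4 G-Sham and 4 G-Surgery mice were housed on the ground, and the 4 FLT-Sham and 3 FLT-Surgery mice flew on the International Space Station. Surgery was the removal of a segment of the femoral shaft, which was bridged with a synthetic scaffold and a collagen sponge soaked in saline only, and the sham mice were unoperated. The labels name the tissue callus in all groups, but in sham mice it was the matching stretch of intact femur, and in operated mice it was the whole shaft left after both ends were cut off, so the sample also holds whatever marrow, vessel or muscle stayed on the bone. Carcasses were frozen whole and thawed for dissection, and the study lists sub-optimal RNA quality among its limitations. Sample RNA was labelled with Cy5 and hybridised against a commercial reference pooled from 11 mouse cell lines in Cy3, with no dye swap.

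Each value below is a log2 ratio, the log2 of the sample signal over the reference signal at the same spot, and a difference between groups is a difference of mean log2 ratios. Within a group the values follow the replicate numbers of the labels, which were 1, 3, 4 and 5 in G-Sham, 4, 6, 8 and 9 in FLT-Sham, 1, 3, 4 and 5 in G-Surgery, and 1, 3 and 5 in FLT-Surgery. On the 15 arrays, 22.5% to 38.6% of 55681 probes stood above background in Cy5. Of the 47 members, 45 did so on at least 13 arrays and were tested, while Cox7b2 and Cox8c did so on no array. The arrays lay on 3 slides, of which the third held G-Sham replicate 4 alone. In every comparison the median over all probes was shifted as well (0.25 for FLT-Sham versus G-Sham, -0.20 for FLT-Surgery versus G-Surgery, 0.14 for G-Surgery versus G-Sham and -0.29 for FLT-Surgery versus FLT-Sham), and other scalings moved that shift to -0.13, 0.30, -0.09 and 0.36 at the furthest, so medians of members are also given minus the median of all probes. In bulk tissue, fewer cells of a type and less RNA per cell cannot be told apart.

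The 3 muscle isoforms of complex IV varied most among its subunits, while Cox6a1 and Cox8a, partners of 2 of them, varied little. Cox6a2 binds near the cytochrome c site of the enzyme, and its log2 ratio was 1.99, 4.50, 5 and 5.49 in G-Sham, 6.18, 6.34, 3.73 and 5.76 in FLT-Sham, 1.76, 4.86, 4.09 and 4.35 in G-Surgery, and 2.91, 0.44 and 0.41 in FLT-Surgery. The value was low in G-Sham replicate 1, FLT-Sham replicate 8 and G-Surgery replicate 1, and lower still in FLT-Surgery replicates 3 and 5. Its partner Cox6a1 read -2.47, -1.96, -2.08 and -1.88 in G-Sham, -1.88, -1.93, -2.00 and -1.70 in FLT-Sham, -1.67, -1.73, -1.91 and -1.92 in G-Surgery, and -1.49, -1.89 and -2.20 in FLT-Surgery, which spans 0.98 over all 15 arrays against 5.92 for Cox6a2.

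Cox7a1, a subunit that lies at the contact between the copies of the oxidase in its dimer, was low on the same arrays. Its log2 ratio was 1.90, 5.06, 4.86 and 5.31 in G-Sham, 6.37, 6.77, 3.25 and 6.29 in FLT-Sham, 1.09, 4.30, 3.42 and 4.33 in G-Surgery, and 3.003, -0.50 and -0.30 in FLT-Surgery. Only in FLT-Surgery replicates 3 and 5 did the signal drop below that of the reference. The partner Cox7a2 read -0.66, 0.21, -0.18 and 0.26 in G-Sham, 0.76, 1.02, -0.29 and 0.54 in FLT-Sham, -0.76, 0.29, -0.51 and 0.22 in G-Surgery, and -0.85, -0.58 and -1.34 in FLT-Surgery. It was also highest in FLT-Sham replicates 4, 6 and 9, although its span of 2.36 was well below the 7.27 of Cox7a1.

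Cox8b, the muscle form of the smallest subunit, spanned 7.87. Its log2 ratio was 8.20, 11.42, 10.49 and 11.98 in G-Sham, 11.49, 11.86, 9.49 and 11.45 in FLT-Sham, 7.10, 11.58, 10.45 and 10.57 in G-Surgery, and 9.36, 4.49 and 4.11 in FLT-Surgery. These ratios rest on a weak reference, since the Cox8b probe stood above background in Cy3 on 11 arrays only. Cox8a read 0.27, 0.06, 0.33 and 0.39 in G-Sham, -0.38, -0.64, 0.06 and 0.36 in FLT-Sham, 0.0049, -0.031, 0.30 and -0.14 in G-Surgery, and 0.43, 0.061 and 0.14 in FLT-Surgery, and its 4 groups overlapped.

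**Figure D1:**
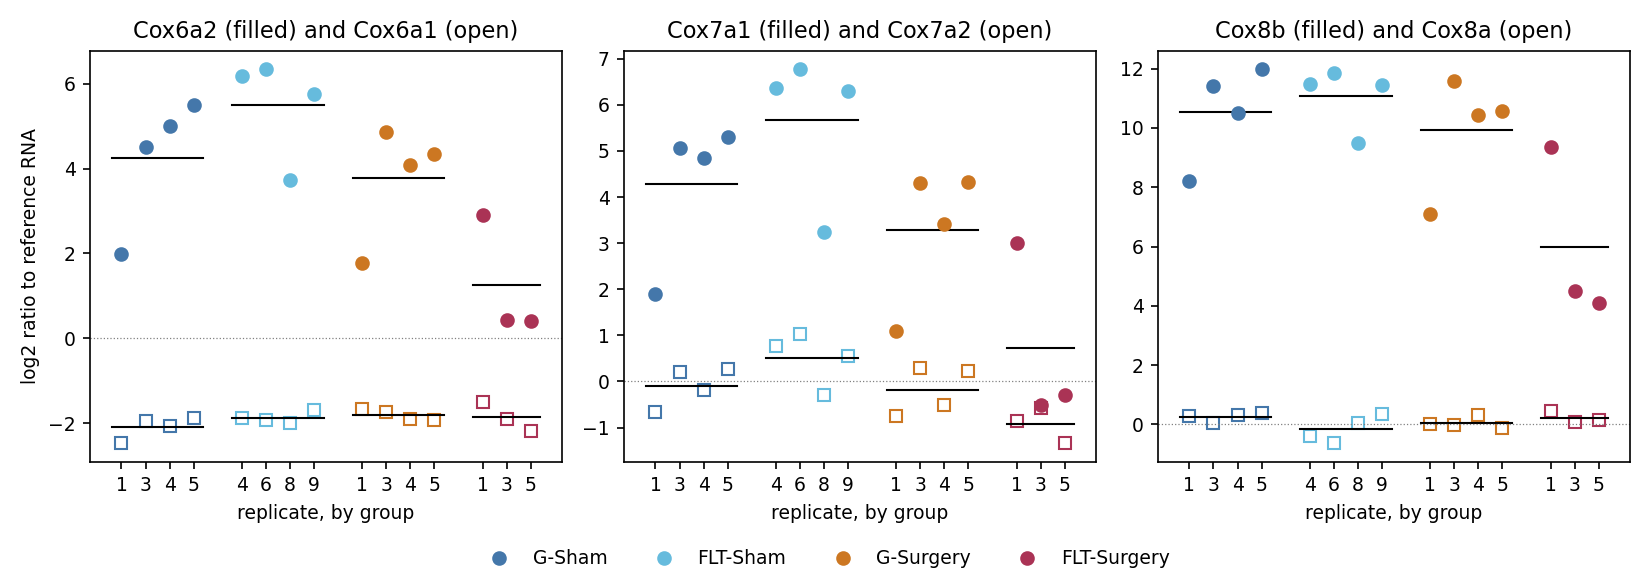
Log2 ratio to the reference RNA of each muscle isoform (filled circles) and its partner (open squares) on the 15 arrays, by group and replicate number, with black lines at group means. Cox6a2 ranges from 0.41 to 6.34 and Cox6a1 from -2.47 to -1.49, and the filled points of FLT-Surgery 3 and 5, and within their groups those of G-Sham 1, G-Surgery 1 and FLT-Sham 8, lie low in all 3 panels.

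For 5 of the 6 isoform genes RefSeq (GRCm38.p6) gives a start site, and the 250 bases before it are printed here because the muscle forms spanned a wider range than their partners. Capitals mark letters of 5 motifs searched on both strands: the E-box CANNTG, bound by myogenic factors among others; the ETS core CCGGAAG; the half-site AAGGTCA of oestrogen-related receptors; the core GCGCATG of the factor NRF1; and the MEF2 consensus. Cox6a2 was not among the matched genes.
Cox7a1, chr7:30183921-30184170, plus strand: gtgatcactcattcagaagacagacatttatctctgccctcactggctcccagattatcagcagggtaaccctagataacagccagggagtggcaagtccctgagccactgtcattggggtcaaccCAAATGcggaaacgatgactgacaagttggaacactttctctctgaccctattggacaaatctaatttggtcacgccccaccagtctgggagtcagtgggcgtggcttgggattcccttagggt
Cox7a2, chr9:79759854-79760103, minus strand: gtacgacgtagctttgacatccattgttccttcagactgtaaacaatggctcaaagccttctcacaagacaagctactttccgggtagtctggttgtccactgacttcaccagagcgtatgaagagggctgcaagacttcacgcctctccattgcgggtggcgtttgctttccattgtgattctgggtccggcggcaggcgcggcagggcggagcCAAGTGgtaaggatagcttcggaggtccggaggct
Cox8b, chr7:140900447-140900696, minus strand: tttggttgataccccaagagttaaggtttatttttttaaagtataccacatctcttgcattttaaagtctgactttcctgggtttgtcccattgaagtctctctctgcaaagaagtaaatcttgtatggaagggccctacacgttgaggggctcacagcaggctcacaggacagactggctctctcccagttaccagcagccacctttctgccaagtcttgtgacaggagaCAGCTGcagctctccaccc
Cox8a, chr19:7217617-7217866, minus strand: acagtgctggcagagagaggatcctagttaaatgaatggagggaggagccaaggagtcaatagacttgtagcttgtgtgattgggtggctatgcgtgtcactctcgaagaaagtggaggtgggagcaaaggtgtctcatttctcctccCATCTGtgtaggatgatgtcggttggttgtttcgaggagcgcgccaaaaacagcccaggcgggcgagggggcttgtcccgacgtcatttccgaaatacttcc
Cox6a1, chr5:115348959-115349208, minus strand: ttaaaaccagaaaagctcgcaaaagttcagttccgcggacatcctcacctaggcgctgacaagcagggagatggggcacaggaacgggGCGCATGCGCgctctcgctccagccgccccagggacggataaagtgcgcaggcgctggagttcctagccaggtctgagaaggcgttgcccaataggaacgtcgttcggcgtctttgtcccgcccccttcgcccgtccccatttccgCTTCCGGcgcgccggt
The windows of Cox7a1, Cox7a2, Cox8b and Cox8a each hold 1 E-box and no match to the other 4 motifs, so on these letters the muscle forms and their partners looked alike. Cox6a1 holds 1 ETS core and 2 overlapping NRF1 matches, on opposite strands of 1 palindromic run. Start sites were matched for 36 of the 47 members, with 39 windows in all. The ETS core was present in 23.1% of member windows against 6.91% of 32851 windows of all genes, the NRF1 core in 15.4% against 3.24%, the receptor half-site in 5.13% against 4.08%, and the E-box in 61.5% against 66.2%. None of the 39 held the MEF2 consensus, which 2.92% of all windows held. A match is a description of letters and does not show binding.

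The muscle isoforms were next set against their partners within each array. The difference Cox6a2 minus Cox6a1 was 4.46, 6.46, 7.08 and 7.36 in G-Sham, 8.06, 8.27, 5.73 and 7.46 in FLT-Sham, 3.44, 6.59, 6.01 and 6.27 in G-Surgery, and 4.41, 2.33 and 2.61 in FLT-Surgery. It compares 2 probes that each have their own reference level, so it is read only between groups and not as a ratio of transcripts. Between FLT-Surgery and FLT-Sham the groups did not overlap, and the mean difference was -4.26 (exact permutation p = 0.0571, adjusted p = 0.229). The exact p here is the smallest that 4 arrays against 3 allow, and such a design cannot pass 0.05.

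Cox7a1 minus Cox7a2 differed by -3.51 (exact permutation p = 0.114, adjusted p = 0.229) between FLT-Surgery and FLT-Sham, where FLT-Surgery replicate 1 reached into the range of FLT-Sham replicate 8. For Cox8b minus Cox8a the same comparison gave -5.45 (exact permutation p = 0.0571, adjusted p = 0.229), with no overlap. FLT-Surgery against G-Surgery gave -2.46 (exact permutation p = 0.114, adjusted p = 0.229) for the Cox6a pair. In that comparison the Cox7a pair gave -1.82 and the Cox8 pair -4.12, each with the same exact permutation p of 0.114. Between FLT-Sham and G-Sham the 3 pairs differed by 1.04, 0.79 and 0.96, and between G-Surgery and G-Sham by -0.77, -0.90 and -0.37, with exact permutation p from 0.286 to 0.714, where 4 against 4 could have reached 0.0286. None of the 12 differences passed 0.05 after Benjamini-Hochberg adjustment, and the smallest adjusted p was 0.229. The sign of the Cox8 difference between G-Surgery and G-Sham turned without G-Surgery replicate 1 (0.56) or G-Sham replicate 5 (0.070).

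Markers of skeletal muscle fibres varied with these isoforms. The mean log2 ratio of 27 such genes, among them Acta1, Ckm and the myosin heavy chains Myh1, Myh2, Myh4 and Myh7, lay between 4.58 and 8.08 in G-Sham, 5.56 and 8.33 in FLT-Sham, 4.55 and 7.24 in G-Surgery, and 2.56 and 5.75 in FLT-Surgery. The log2 of their summed Cy5 signal was 19.96 to 22.29, 20.60 to 23.90, 19.57 to 21.93 and 18.12 to 21.38 in the same order, and no array had fewer than 18 of the 27 above background. So muscle RNA was present in each sample, with a signal that differed several-fold within every group. The part of RNA quality in these differences was not tested.

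Over the 15 arrays, 1 per mouse, Cox6a2 followed the mean of the muscle markers with Pearson r = 0.98 and Spearman rho = 0.97. The permutation p was 1e-05 for both, the smallest that 100000 permutations give, and 2e-05 after adjustment over 6 genes. The permutations ran over all 15 arrays without regard to group or slide, and genes and markers share each array's scaling. So these p-values do not measure association within groups. Cox7a1 gave r = 0.97 and rho = 0.96 and Cox8b r = 0.97 and rho = 0.97, with the same permutation p. Leaving out FLT-Surgery replicates 3 and 5, the arrays farthest from the median of the markers, left r at 0.97, 0.95 and 0.95, and within slides 1 and 2 none of the 3 fell below 0.95.

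The partners split in this respect. Cox7a2 also followed the markers (r = 0.85, rho = 0.89, adjusted permutation p = 0.000105 and 6e-05, and r = 0.87 without the 2 farthest arrays), with 0.84 and 0.90 within slides. For Cox6a1 r was 0.30 (rho = 0.21, adjusted permutation p = 0.327 and 0.531) and for Cox8a -0.22 (rho = -0.14, adjusted permutation p = 0.437 and 0.614), and without the 2 farthest arrays r was 0.22 and -0.31. Within slides 1 and 2 Cox6a1 gave 0.26 and 0.46, and Cox8a -0.43 and -0.37.

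**Figure D2:**
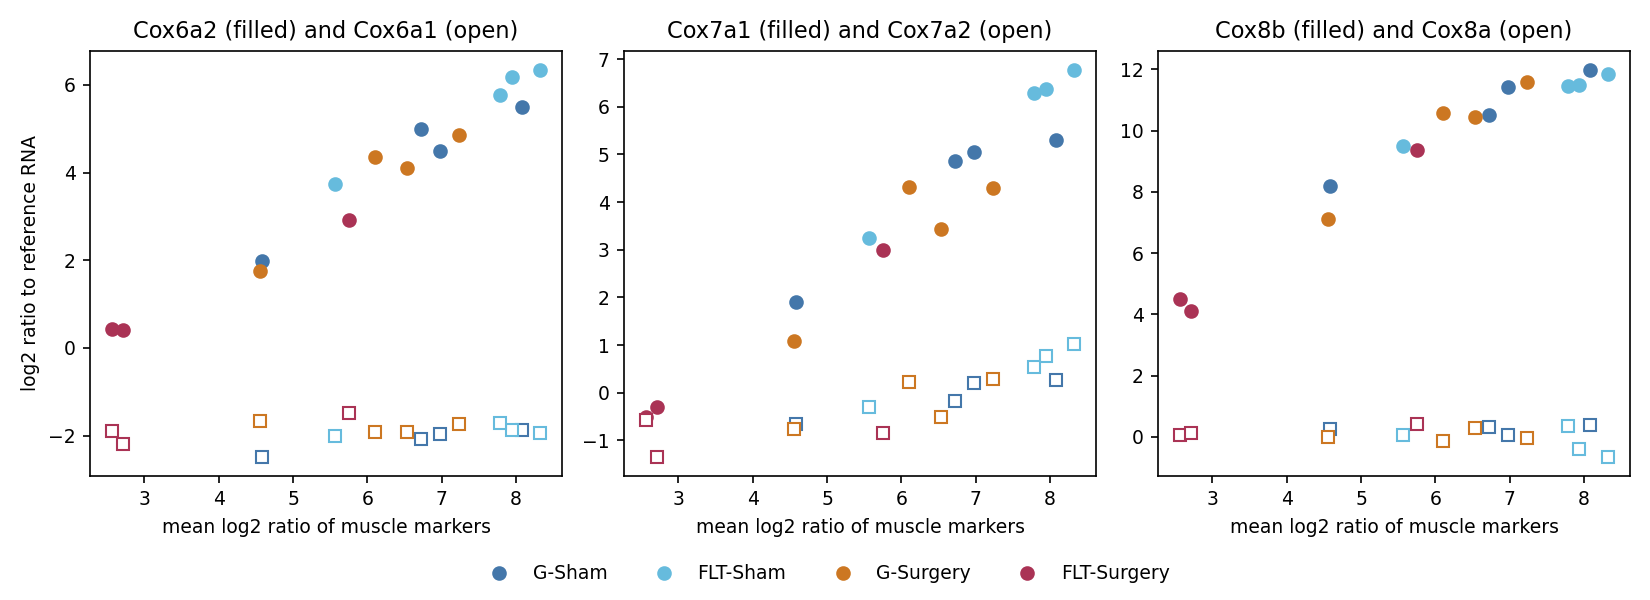
Log2 ratio of the muscle isoforms (filled circles) and their partners (open squares) against the mean log2 ratio of 27 skeletal muscle markers, 1 point per array and coloured by group. Filled points climb with the markers in all 4 groups (r = 0.98, 0.97 and 0.97), and the open points of Cox6a1 and Cox8a stay level.

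Most other subunits took the same order of arrays, as the plot of all members by array shows. Of the 45 members tested, 31 (68.9%) had r of at least 0.8 with the muscle markers over the 15 arrays, against 11.0% of 21869 probes, and the median r was 0.90 against 0.16. These points share arrays and their scaling, so they are given as a description. Cox6a2, Cox7a1 and Cox8b stood highest, followed by Atp5mpl at 0.96, Atp5o at 0.96 and Cox7c at 0.96, and the lowest were Cox6b2 at -0.53 and Cox4i2 at -0.72. In G-Sham, replicate 1 was the lowest array for 38 of the 45 members (84.4%, against 49.5% of all probes). In FLT-Sham, replicate 8 was lowest for 43 (95.6% against 46.4%). G-Surgery replicate 1 was lowest for 35 of the 45 (77.8% against 19.5%), and FLT-Surgery replicate 1 was highest for 33 (73.3% against 45.0%). The share of probes above Cy5 background was 23.3% on G-Sham replicate 1, 26.7% on FLT-Sham replicate 8 and 22.5% to 25.7% in FLT-Surgery, against 35.0% to 38.6% in the other FLT-Sham mice. It was 37.3% on G-Surgery replicate 1, where members were low, and 23.9% on G-Sham replicate 5, where they were not, and its part in the order of the arrays was not tested.

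**Figure D3:**
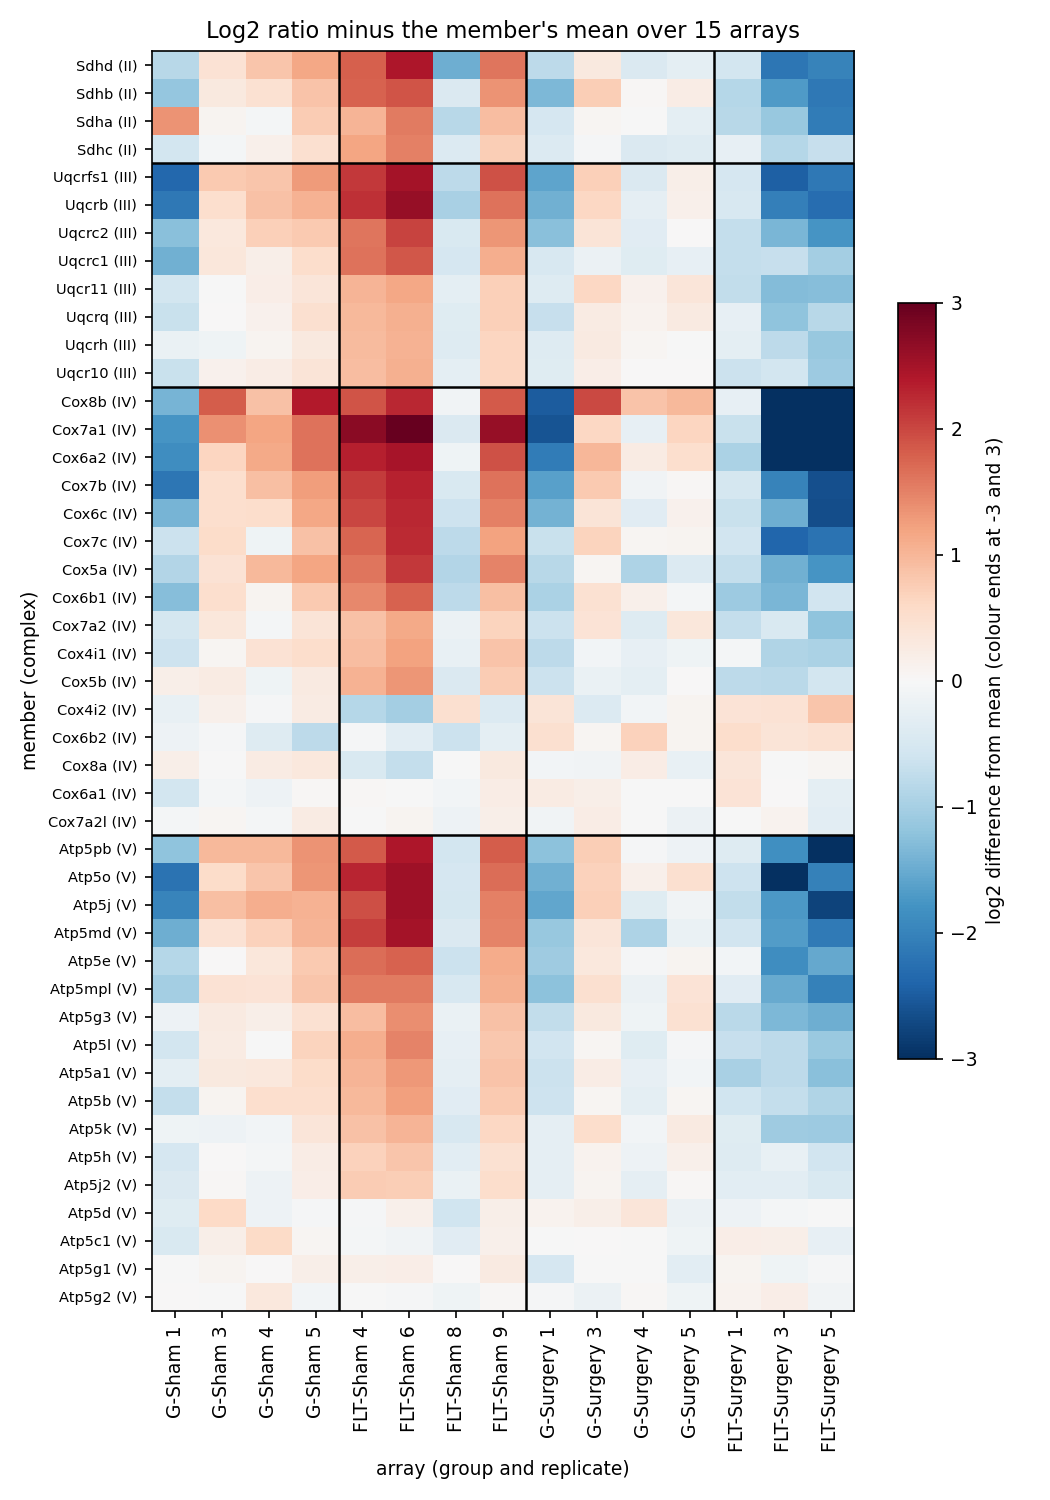
Log2 ratio of each of the 45 tested members minus its own mean over the 15 arrays, with members in rows by complex and arrays in columns by group, and the colour scale ended at -3 and 3. Red columns mark FLT-Sham replicates 4, 6 and 9 and blue ones FLT-Surgery replicates 3 and 5. The pale rows Cox6a1, Cox7a2l, Cox8a, Atp5c1, Atp5d, Atp5g1 and Atp5g2 are members that span 0.50 to 1.19 over all arrays.

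Complex II has only 4 subunits, and 3 of them followed that order. Sdhb, which carries the iron-sulphur clusters, read -0.30, 1.16, 1.32 and 1.71 in G-Sham, 2.62, 2.75, 0.43 and 2.21 in FLT-Sham, -0.50, 1.60, 0.90 and 1.09 in G-Surgery, and -0.003, -0.84 and -1.30 in FLT-Surgery. Sdhd, a membrane anchor, read -3.35, -2.08, -1.68 and -1.34 in G-Sham, -0.73, -0.081, -3.97 and -0.89 in FLT-Sham, -3.30, -2.22, -2.94 and -2.81 in G-Surgery, and -3.06, -4.68 and -4.52 in FLT-Surgery, and it fell below background on 2 arrays. Sdhc, the other anchor, read -1.05, -0.55, -0.34 and -0.019 in G-Sham, 0.68, 1.02, -0.92 and 0.25 in FLT-Sham, -0.92, -0.53, -0.92 and -0.88 in G-Surgery, and -0.73, -1.36 and -1.20 in FLT-Surgery. Sdhd stood above background in only 1 of the 3 FLT-Surgery mice. In each of the 3 genes FLT-Sham replicates 4, 6 and 9 were the 3 highest of the 15 arrays.

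Sdha, the flavoprotein that oxidises succinate, departed from the rest on a single array. It read 0.52, -0.76, -0.89 and -0.084 in G-Sham, 0.18, 0.73, -1.67 and 0.095 in FLT-Sham, -1.33, -0.78, -0.84 and -1.14 in G-Surgery, and -1.67, -1.96 and -2.93 in FLT-Surgery. G-Sham replicate 1, the lowest array of its group for 38 members, was the highest of its group for Sdha.

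In complex III the core proteins, the Rieske protein and the small subunit Uqcrb, with a span of 4.88, spread more than the other small subunits. Uqcrfs1, the Rieske iron-sulphur protein, read -3.35, -0.19, -0.14 and 0.30 in G-Sham, 1.13, 1.51, -1.76 and 0.93 in FLT-Sham, -2.57, -0.27, -1.42 and -0.81 in G-Surgery, and -1.49, -3.44 and -3.13 in FLT-Surgery, above background on 3 of 4 G-Sham and 2 of 3 FLT-Surgery arrays. The core proteins were Uqcrc2, at -2.00, -0.43, -0.026 and 0.034 in G-Sham, 0.85, 1.29, -1.20 and 0.58 in FLT-Sham, -1.99, -0.35, -1.08 and -0.74 in G-Surgery, and -1.45, -2.13 and -2.52 in FLT-Surgery, and Uqcrc1, at -1.39, 0.41, 0.25 and 0.59 in G-Sham, 1.69, 1.93, -0.43 and 1.16 in FLT-Sham, -0.42, -0.12, -0.30 and -0.18 in G-Surgery, and -0.66, -0.62 and -0.95 in FLT-Surgery. Uqcrh, the acidic hinge protein that docks cytochrome c, read 0.48, 0.56, 0.77 and 0.98 in G-Sham, 1.63, 1.73, 0.29 and 1.34 in FLT-Sham, 0.31, 0.95, 0.75 and 0.67 in G-Surgery, and 0.39, -0.094 and -0.46 in FLT-Surgery. Every member of complex III was lowest on G-Sham replicate 1 within G-Sham and on FLT-Sham replicate 8 within FLT-Sham, but their spans ran from 2.17 in Uqcr10 to 4.94 in Uqcrfs1.

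Among the complex IV subunits that have no muscle form, Cox7b, Cox6c and Cox7c varied most. Cox7b, a small subunit of the membrane part, read -2.46, 0.20, 0.61 and 0.96 in G-Sham, 1.81, 2.01, -0.75 and 1.32 in FLT-Sham, -1.92, 0.49, -0.41 and -0.25 in G-Surgery, and -0.84, -2.31 and -2.93 in FLT-Surgery. Cox6c read -1.75, 0.15, 0.17 and 0.80 in G-Sham, 1.65, 1.89, -0.99 and 1.16 in FLT-Sham, -1.79, 0.017, -0.70 and -0.23 in G-Surgery, and -1.03, -1.82 and -3.02 in FLT-Surgery. Cox7c read 0.061, 1.28, 0.59 and 1.59 in G-Sham, 2.47, 2.95, -0.076 and 1.91 in FLT-Sham, 0.046, 1.39, 0.78 and 0.80 in G-Surgery, and 0.13, -1.66 and -1.496 in FLT-Surgery, with FLT-Surgery replicates 3 and 5 apart from all the others.

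Cox4i2 and Cox6b2 went the other way. Cox4i2, the form of subunit 4 known from lung and induced by low oxygen, read 2.51, 2.87, 2.70 and 2.98 in G-Sham, 1.89, 1.72, 3.21 and 2.32 in FLT-Sham, 3.12, 2.33, 2.65 and 2.81 in G-Surgery, and 3.15, 3.17 and 3.57 in FLT-Surgery. It was lowest in FLT-Sham replicates 6, 4 and 9, and its 3 FLT-Surgery values did not overlap those of G-Surgery. Its widely expressed counterpart Cox4i1 lay between -1.40 and 0.76 and was highest in the same FLT-Sham replicates. Cox6b2, known as a testis form, read 2.37, 2.49, 2.15 and 1.75 in G-Sham, 2.50, 2.21, 1.89 and 2.25 in FLT-Sham, 3.01, 2.58, 3.21 and 2.61 in G-Surgery, and 3.07, 2.92 and 2.98 in FLT-Surgery. All 7 operated mice lay above all 8 sham mice, narrowly, at 2.58 against 2.50. The share of all probes that separate in this way was not counted. Other scalings brought its difference to as little as 0.12 in G-Surgery versus G-Sham and 0.12 in FLT-Surgery versus FLT-Sham.

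In the ATP synthase Atp5pb, a subunit of the peripheral stalk, read -2.91, -0.73, -0.74 and -0.34 in G-Sham, 0.13, 0.73, -2.26 and 0.12 in FLT-Sham, -2.93, -0.96, -1.73 and -1.85 in G-Surgery, and -2.08, -3.54 and -6.39 in FLT-Surgery, and it stood above background in only 1 of the 3 FLT-Surgery mice. Atp5o, which joins that stalk to the catalytic head, read -3.28, -0.51, -0.24 and 0.26 in G-Sham, 1.21, 1.47, -1.58 and 0.61 in FLT-Sham, -2.50, -0.38, -0.90 and -0.59 in G-Surgery, and -1.67, -4.78 and -3.09 in FLT-Surgery, below background on 1 array. Atp5j, another stalk subunit, read -2.63, 0.25, 0.43 and 0.40 in G-Sham, 1.29, 1.88, -1.17 and 0.86 in FLT-Sham, -2.22, 0.073, -1.01 and -0.75 in G-Surgery, and -1.39, -2.38 and -3.42 in FLT-Surgery. These 3 genes share the low arrays with the muscle isoforms.

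Atp5md, a small accessory subunit, read -3.02, -1.10, -0.86 and -0.53 in G-Sham, 0.53, 0.96, -1.98 and -0.062 in FLT-Sham, -2.68, -1.19, -2.48 and -1.75 in G-Surgery, and -2.11, -3.23 and -3.67 in FLT-Surgery. In contrast, Atp5c1, the central gamma shaft, read -2.38, -1.74, -1.36 and -1.87 in G-Sham, -1.98, -2.04, -2.26 and -1.77 in FLT-Sham, -1.95, -1.91, -1.93 and -2.07 in G-Surgery, and -1.72, -1.74 and -2.18 in FLT-Surgery. Atp5g1, a gene for the membrane ring that carries protons, read 2.30, 2.41, 2.33 and 2.48 in G-Sham, 2.49, 2.51, 2.34 and 2.58 in FLT-Sham, 1.81, 2.30, 2.31 and 1.99 in G-Surgery, and 2.40, 2.20 and 2.29 in FLT-Surgery, and its second copy Atp5g2 spanned 0.50 over all arrays, the least of any member. The third copy, Atp5g3, spanned 2.85, so genes that encode the same mature ring protein differed in how far they varied. A second probe of Atp5c1 did not stay level: it gave -0.69 for FLT-Surgery versus G-Surgery where the chosen probe gave 0.083, and -1.10 for FLT-Surgery versus FLT-Sham where the chosen probe gave 0.13. Other probes of Cox7a2l went as low as -0.71 and -1.33 in the same comparisons, where its chosen probe gave -0.059 and -0.10. Of 16 members with several probes, the probes disagreed in sign for 3 in FLT-Sham versus G-Sham, 3 in FLT-Surgery versus G-Surgery, 8 in G-Surgery versus G-Sham and 2 in FLT-Surgery versus FLT-Sham.

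FLT-Sham versus G-Sham asked how flown and ground mice differed in the intact femur. The cut-off followed the study's methods, a fold change of at least 2 with an unadjusted p of at most 0.01 from limma's moderated test. No member passed it (higher: 1.78% of 19809 probes, lower: 0.207%, either: 1.99%), none had an adjusted p under 0.05, and none reached an unadjusted p of 0.05, which 9.65% of all probes did. With arrays weighted by their quality in limma, 11 members passed, all as higher, and 28 of 45 had an adjusted p under 0.05. Of the 45, 39 had a higher mean in FLT-Sham (86.7%, against 61.2% of all probes), with a median difference of 0.61, or 0.36 above the median of all probes. Median-centring, the scaling that changed this split most, left 35 of 45 higher.

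By complex the medians were 0.72 in II, 0.81 in III, 0.60 in IV and 0.57 in V, and all 8 members of complex III were above the median of all probes. The largest differences were 1.39 (SE 0.98, adjusted p = 0.549) for Cox7a1, 1.37 (SE 0.91, adjusted p = 0.541) for Atp5o and 1.30 (SE 0.97, adjusted p = 0.555) for Uqcrfs1 in limma's test. At the other end stood Cox4i2 at -0.48 (SE 0.39, adjusted p = 0.567), Cox8a at -0.41 and Atp5c1 at -0.17. In complex II the extremes were Sdhb at 1.03 and Sdha at 0.14, the latter below 0 after a second loess or median-centring. A second probe of Sdhb gave 0.03.

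The groups overlapped for every member (3.64% of probes were higher without overlap and 0.954% lower), and FLT-Sham replicate 8 was the lowest mouse of its group for 43 of the 45. Without that mouse 1 member, Cox7c, passed the cut-off and 34 of 45 reached an unadjusted p of 0.05 in limma, still with none under an adjusted p of 0.05. Of the muscle markers, 22 of 27 had a higher mean in FLT-Sham, with a median of 0.77 and none past the cut-off. Their part in the result was not tested. Within slide 1, with 1 mouse a group, the members' median difference was 0.95, and within slide 2, with 3 against 2, it was 0.65.

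FLT-Surgery versus G-Surgery asked the same of the operated femur, and here 39 of 45 members had a lower mean in flight. The other 6 were 13.3% of the members, against 37.8% of all probes with a higher mean. The median difference was -0.81, or -0.60 against the median of all probes, and 33 of 45 stayed lower after median-centring. Uqcr11, a small complex III subunit that lies outside the naming rule and is named because it stood alone, was the only member past the cut-off (lower: 2.09% of 16601 probes, higher: 1.04%, either: 3.13%). Its log2 ratio was 0.48, 1.02, 1.23 and 1.38 in G-Sham, 2.04, 2.18, 0.74 and 1.73 in FLT-Sham, 0.63, 1.64, 1.15 and 1.40 in G-Surgery, and 0.28, -0.27 and -0.24 in FLT-Surgery, a difference of -1.28 (SE 0.33, adjusted p = 0.28) in limma. No member had an adjusted p under 0.05, and 14 of 45 reached an unadjusted p of 0.05, 31.1% against 16.4% of all probes.

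Of the 45, 9 were lower in all 3 FLT-Surgery mice than in all 4 G-Surgery mice (7.52% of probes were), and Cox4i2 alone was higher without overlap (6% of probes were). The 9 were Sdha in complex II, Uqcr10, Uqcr11 and Uqcrc1 in complex III, and Atp5a1, Atp5g3, Atp5j2, Atp5k and Atp5l in complex V. They were chosen by this separation and are listed as a description. None was a muscle isoform: in each of those, FLT-Surgery replicate 1 lay above G-Surgery replicate 1.

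The muscle isoforms nevertheless had the largest mean differences at the scaling used. In limma these were -3.94 (SE 1.497, adjusted p = 0.288) for Cox8b, -2.55 (SE 1.09, adjusted p = 0.303) for Cox7a1 and -2.51 (SE 0.89, adjusted p = 0.282) for Cox6a2. Over the other scalings these ran from -4.10 to -3.21, -2.55 to -1.63 and -2.51 to -2.05. Atp5pb gave -2.14 (SE 0.97, adjusted p = 0.316), Atp5o -2.09 and Cox7c -1.76, values that other scalings reduced to as little as -0.080, -0.29 and -0.65. Second probes gave -0.99 for Atp5pb and -0.31 for Cox7c. Atp5pb was above background in 1 of 3 FLT-Surgery mice and Atp5o in 2 of 3. The medians of complexes II to V were -1.22, -0.87, -0.75 and -0.81. In complex II the extremes were Sdhb at -1.49 and Sdhc at -0.28, but their second probes gave -0.09 and -1.57, so that order rested on the choice of probe. Sdhc rose to 0.058 and Sdhd to 0.17 at the furthest under other scalings, and Sdha came to -0.18. In complex III the extremes were Uqcrfs1 at -1.42 and Uqcrc1 at -0.49. Highest were Cox4i2 at 0.57 (SE 0.29, adjusted p = 0.346) in complex IV and Atp5g1 at 0.19 in complex V. Over other scalings Cox4i2 ran from 0.0090 to 1.05.

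Single mice set the count of calls. Without FLT-Surgery replicate 1, 12 members passed the cut-off and 4 had an adjusted p under 0.05, without G-Surgery replicate 1 there were 7, and without any of the other 5 mice, when Uqcr11 too fell short, there were 0. Array weights gave 10, with 3 members under an adjusted p of 0.05. After a second loess Uqcr11 fell short as well, and the only call was Cox4i2 as higher, at 1.05, while another scaling brought Cox4i2 to 0.0090. All 23 muscle markers tested had a lower mean in FLT-Surgery, with a median of -2.31, and 4 of them passed the cut-off. The 4 were the myosin genes Myh2 at -5.48, Myl3 at -3.65 and Myl2, the last above background in 1 of 3 FLT-Surgery mice, and the troponin gene Tnnt1 at -2.72. Their part in the members' differences was not tested. Within slides the members' median was -0.88 on slide 1 (2 against 3) and -0.83 on slide 2 (1 against 1).

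**Figure D4:**
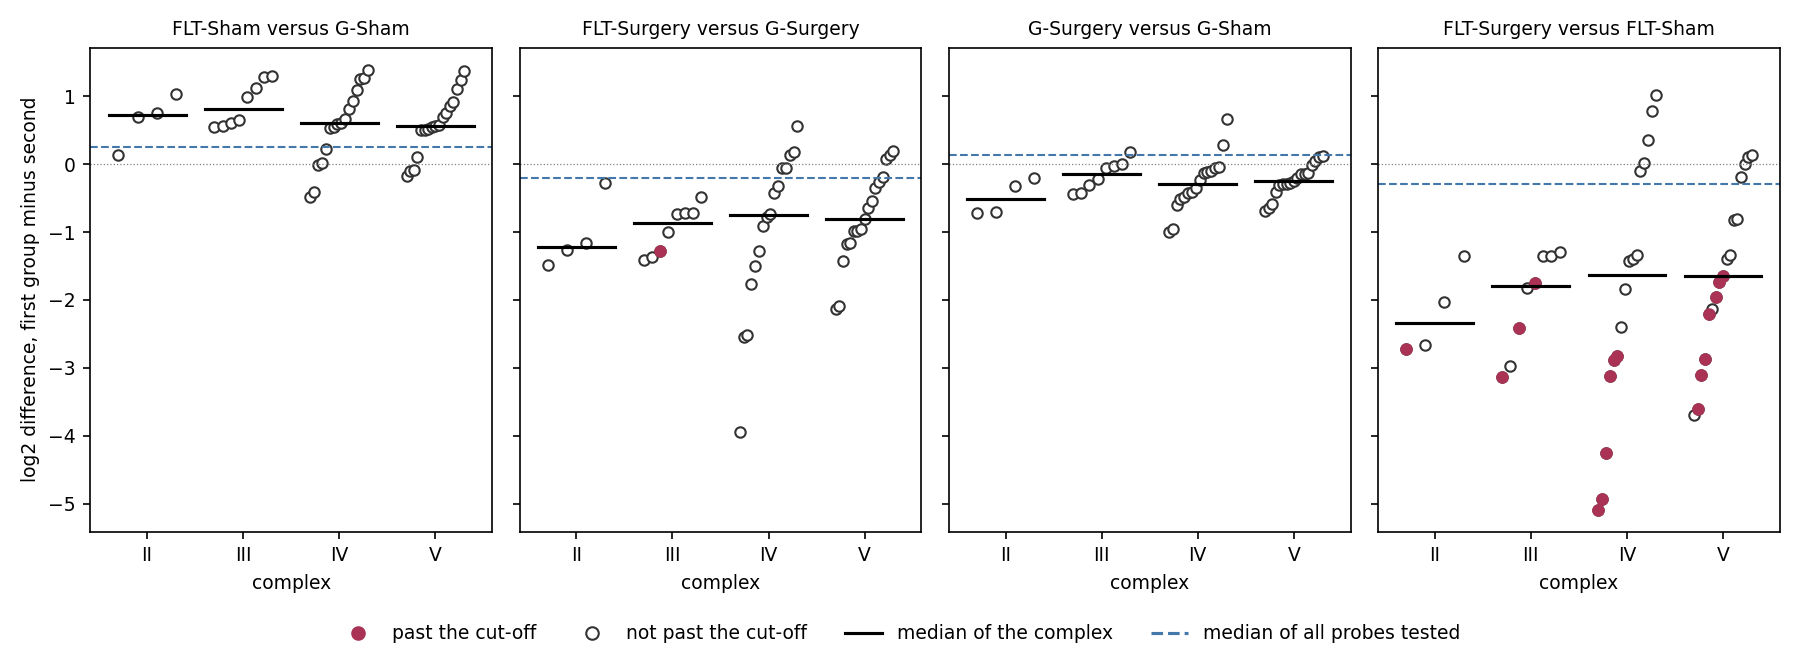
Log2 difference of group means for each tested member in the 4 comparisons, by complex, with a black bar at the median of the complex and a dashed line at the median of all probes tested. Red points passed the cut-off: none in FLT-Sham versus G-Sham or G-Surgery versus G-Sham, 1 in FLT-Surgery versus G-Surgery and 17 in FLT-Surgery versus FLT-Sham.

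Whether the flight difference itself differed between operated and sham mice was tested as an interaction over all 15 arrays. The members' median was -1.44, against -0.37 for all probes, and 39 of 45 were negative. Uqcr11, at -1.93 (SE 0.53, adjusted p = 0.17), and Atp5g3, at -1.74 (SE 0.55, adjusted p = 0.176), passed the cut-off (lower: 4.98% of 21869 probes, higher: 0.357%, either: 5.34%) in limma. Atp5g3, the ring subunit named above, is named for that. No member had an adjusted p under 0.05, and 22 of 45 reached an unadjusted p of 0.05, 48.9% against 19.5% of all probes. Without FLT-Sham replicate 8 there were 29 members past the cut-off and 25 under an adjusted p of 0.05. Without FLT-Surgery replicate 1 there were 9, without G-Surgery replicate 1 there were 7, without G-Sham replicate 5 there were 4, and without any of the other 11 mice there was 1. Array weights gave 35, with 37 under an adjusted p of 0.05. Median-centring gave 0, a second loess or slide as a block 1, normexp with loess 5, and both channels above background 6.

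Surgery on the ground, G-Surgery versus G-Sham, shares all its mice with the flight comparisons. Of the 45, 38 had a lower mean in G-Surgery and 7 a higher one (15.6%, against 59.9% of all probes), with a median of -0.25, or -0.38 against the median of all probes. That direction rested on single mice: 23 members had a higher mean without G-Surgery replicate 1 and 19 without G-Sham replicate 5, against 3 to 11 without any of the other 6. No member passed the cut-off (higher: 2.1% of 17755 probes, lower: 0.518%, either: 2.62%) or had an adjusted p under 0.05 (0.0113% of probes did), and 1 of 45 reached an unadjusted p of 0.05 in limma, 2.22% against 10.9% of all probes. That was Cox6b2, at 0.66 (SE 0.27, adjusted p = 0.436), the only member whose groups did not overlap (5.32% of probes were higher without overlap and 1.56% lower). Over other scalings Cox6b2 ran from 0.12 to 0.66.

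Sdha at -0.72 (SE 0.36, adjusted p = 0.495) and Cox5a, a matrix-side subunit of complex IV, at -0.95 (SE 0.47, adjusted p = 0.495) came next after Cox6b2 by p. Without G-Sham replicate 1, Cox5a and Sdhd passed the cut-off as lower, 2 of 45, named after their values were seen. The direction did not hold within slides: 5 of 45 members were higher on slide 1, with a median of -0.56 (3 against 1), and 37 of 45 on slide 2, with a median of 0.35 (1 against 2), where the median of all probes was also 0.35. Of 25 muscle markers, 16 had a lower mean, with a median of -0.24 and none past the cut-off.

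In flight, operated femurs differed most from intact ones. In FLT-Surgery versus FLT-Sham 17 of 45 members passed the cut-off, all as lower (37.8%, against 6.21% of 19187 probes; higher: 0.422%, either: 6.63%), and the median was -1.75, or -1.46 against the median of all probes. They were 1 of 4 in complex II, 3 of 8 in III, 6 of 16 in IV and 7 of 17 in V. No member had an adjusted p under 0.05 in limma (0.0834% of probes did), 35 of 45 reached an unadjusted p of 0.05 (77.8% against 24.3% of probes), and 20 were lower without overlap (44.4% against 10.6%). This comparison shares its FLT-Surgery mice and its FLT-Sham mice with the spaceflight comparisons, so it is no separate evidence for them.

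The muscle isoforms led, with -5.09 (SE 1.28, adjusted p = 0.14) for Cox8b (-6.77 to -4.10 over other scalings), -4.94 (SE 1.13, adjusted p = 0.136) for Cox7a1 and -4.25 (SE 0.86, adjusted p = 0.125) for Cox6a2, the last a fold of 19.0. Of the other complex IV subunits Cox7b gave -3.12 (SE 0.79, adjusted p = 0.141), Cox6c -2.88 and Cox7c -2.82, which other scalings reduced to as little as -2.33, -2.25 and -1.79. In complex V Atp5o gave -3.61 (SE 0.94, adjusted p = 0.144), Atp5j -3.11 and Atp5md -2.87, and Atp5pb did not pass. Other scalings brought Atp5o, Atp5j and Atp5md to as little as -1.50, -1.84 and -1.58. In complexes II and III Sdhb gave -2.72 (SE 0.65, adjusted p = 0.137) (-0.38 by its second probe), Uqcrfs1 -3.14 and Uqcrc2 -2.41. Under other scalings Sdhb, Uqcrfs1 and Uqcrc2 came to as little as -2.23, -1.45 and -1.46. At the other end stood Cox4i2 at 1.01 (SE 0.45, adjusted p = 0.214) and Cox6b2 at 0.78 (SE 0.33, adjusted p = 0.201), Cox6b2 being higher in all 3 FLT-Surgery mice than in all 4 FLT-Sham mice (4.04% of probes were). Over other scalings Cox4i2 ran from 0.26 to 1.66 and Cox6b2 from 0.12 to 1.67.

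The count of 17 rested on which mice were included. Without FLT-Sham replicate 8 it was 35, of which 1 was higher, with 37 members under an adjusted p of 0.05. It was 1 without FLT-Surgery replicate 3 or 5, 4 without FLT-Sham replicate 6 or 9, and 5 without FLT-Sham replicate 4. Without FLT-Surgery replicate 1 it was 17, with 3 members under an adjusted p of 0.05. With slide as a block 2 members passed. Array weights gave 37, with 37 under an adjusted p of 0.05, and all 15 arrays in the fit gave 34, with 15. Within slides the members' median was -2.29 on slide 1 (2 against 1) and -1.33 on slide 2 (1 against 3). Of the 27 muscle markers 26 had a lower mean, with a median of -3.71 and 12 past the cut-off.

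Genes that work with these complexes gave few calls between flown and ground mice. Cytochrome c (Cycs), to which complex III passes electrons, and cytochrome c1 (Cyc1), a complex III subunit that the rule leaves out, differed by 0.75 and 0.41 in FLT-Sham versus G-Sham and by -0.32 and -0.24 in FLT-Surgery versus G-Surgery, and neither passed the cut-off. Of the citric acid cycle and pyruvate dehydrogenase genes, 17 of 17 tested had a higher mean in FLT-Sham (median 0.65) and 13 of 14 a lower one in FLT-Surgery versus G-Surgery (median -0.44), none past the cut-off. Assembly factors of the complexes had medians of 0.60 over 27 genes and -0.79 over 21, with 0 and 1 past the cut-off. The 1 was Sco2 as lower, where 2.09% of all probes were. Sco2 was above background in 4 G-Surgery and 0 FLT-Surgery mice and met the filter only through G-Surgery, so no size is given. In FLT-Surgery versus FLT-Sham the cycle genes had a median of -1.64 with 0 of 17 past the cut-off, and the assembly factors -1.30. There 4 of the 27 factors passed it as lower, where 6.21% of all probes did. Among them was Sco2, which was above background in no FLT-Surgery mouse.

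Regulators of mitochondrial genes had medians of 0.87 over 13 genes in FLT-Sham versus G-Sham and -0.37 over 9 in FLT-Surgery versus G-Surgery, none past the cut-off. In FLT-Surgery versus FLT-Sham 3 of 13 passed it as lower, where 6.21% of all probes did: Ppargc1a, the coactivator that drives mitochondrial biogenesis, at -2.17, Tfam, which packages mitochondrial DNA, and the orphan receptor gene Esrrb. Tfam and Esrrb were not well above background in any FLT-Surgery mouse and met the filter only through FLT-Sham, where they were high. So their calls are a description and no size is given. Ppara, a receptor that controls fatty acid oxidation, stood at 1.08 in that comparison and did not pass.

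Markers of other cell types also differed. In FLT-Sham versus G-Sham, Plin1 and Cidec, proteins of the fat droplet, passed the cut-off as higher among 6 adipocyte genes tested (1.78% of all probes did), Plin1 being above background in 3 of 4 FLT-Sham and 0 of 4 G-Sham mice and Cidec in 4 and 1. Both met the filter of 3 arrays only through FLT-Sham, where they were high, so the 2 calls are a description. The mean log2 ratio of that list lay between -0.12 and 3.95 in G-Sham and 3.57 and 5.31 in FLT-Sham. Cox7a1 and Cox8b are also made in brown fat. Of its markers Ucp1, Elovl3 and Prdm16 were above background on no array, Dio2 on 5, and Cidea in 3 FLT-Sham mice and on no other array. Cidea passed the cut-off as higher in FLT-Sham versus G-Sham and as lower in FLT-Surgery versus FLT-Sham. It met the filter in both only through FLT-Sham, where it was high, so these calls are given as a description. Neutrophil genes had median differences of 1.05 and -1.70 in the flight comparisons of sham and of operated mice, and erythroid genes 1.62 and -1.45. Osteoblast and osteocyte genes had 0.86 and -0.68, with 4 to 8 of 8 above background on each array. Ibsp, a protein of the bone matrix, passed the cut-off as higher in FLT-Sham versus G-Sham, at 2.35, where 6 of 8 genes of its list were higher. It also passed in G-Surgery versus G-Sham, where 4 of the 8 were higher and 4 lower. There 4 of 4 chondrocyte genes were higher and 6 of 6 erythroid genes lower, with 1 of each past the cut-off (2.1% of all probes were higher and 0.518% lower). The chondrocyte call was Col2a1, above background in 0 G-Sham and 4 G-Surgery mice. In the flight comparisons of sham and of operated mice chondrocyte genes, 3 of which were tested, had medians of 1.35 and -3.50. Col2a1 alone passed the cut-off, as lower in operated mice, and was above background in 4 G-Surgery and 1 FLT-Surgery mice. In FLT-Surgery versus FLT-Sham, 5 of 6 adipocyte genes passed the cut-off as lower, where 6.21% of all probes did. Of these, Adipoq, Plin1 and Cidec were above background in no FLT-Surgery mouse and met the filter only through FLT-Sham, so no median is given. Erythroid genes had a median of -4.00 with 4 of 6 past the cut-off, but only 3 to 4 of 6 were above background on each FLT-Surgery array. Neutrophil genes had -2.79 with 3 of 8, and osteoblast and osteocyte genes -0.41 with 2 of 7. The part of these cells in the members' values was not tested.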

How the data were processed

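RNA of 15 mice was measured on 2-colour Agilent mouse arrays, sample in Cy5 and reference in Cy3. Per the submitters' processing notes, scans were read with Agilent Feature Extraction 12.0. The deposited log10 ratio of each spot, background-subtracted and dye-normalized by that program, was divided by the log10 of 2 to give a log2 ratio, with no second loess. It was exactly 0 for 15.9% to 32.3% of spots per array, among members only for Cox8c. The deposited processed intensity of Cy5 chose the probe for each gene. The series' own value table held the same log10 ratios deposited at fewer decimals (largest difference 0.005). Replicate spots were averaged per probe, and accessions were named through RefSeq.

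Probes above Cy5 background on at least 3 arrays of the groups compared were fitted with limma 3.58.1 in R 4.3.3, each comparison on its own groups and the interaction on all 15 arrays, with Benjamini-Hochberg adjustment over all probes tested. Isoform differences used exact two-sided permutation tests and correlations 100000 permutations (scipy 1.17.1). Members and gene lists were chosen with earlier results of these data known. Named genes were the 4 of complex II, the isoform pairs, Cox4i2, Cox6b2, the extremes of each complex in each flight comparison and the 12 largest past the cut-off. On simulated data with 200 changed probes, the cut-off recovered 71.5% at a log2 change of 2 for FLT-Sham versus G-Sham and 70.5% for FLT-Surgery versus G-Surgery, and at a log2 change of 1 it recovered 21% and 27.5%. Alternatives were a second loess, normexp with loess, median-centring, Cy5 alone, the value table, other filters, another choice of probe, all arrays in a fit, slide or replicate number as a block, array weights and leaving out each mouse. With 3 or 4 mice a group, their number limits the precision.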

Additional observations from a re-analysis of the deposited data

Results flagged for a closer look

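Single mice stood apart from the others of their group in 9 of 93 combinations of a group of 4 with a named gene or isoform difference, by the gap to the nearest other mouse as a share of the group's range (Dixon's test). Chance flags about 1 in 20 such groups, or 4.65 here, and the combinations are not independent.

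G-Sham replicate 1 was low for Uqcrfs1 at -3.35 (others -0.19 to 0.30), Atp5j at -2.63 (others 0.25 to 0.43), Atp5pb at -2.91 (others -0.74 to -0.34) and Cox7a1 at 1.90 (others 4.86 to 5.31). Its difference Cox7a1 minus Cox7a2 was 2.56 (others 4.85 to 5.04). FLT-Sham replicate 8 was low for Cox7a1 at 3.25 (others 6.29 to 6.77) and for Cox7a1 minus Cox7a2 at 3.54 (others 5.61 to 5.75). G-Surgery replicate 1 was low for Cox7a1 minus Cox7a2 at 1.85 (others 3.94 to 4.11). Uqcrfs1 was above background on 3 of the 4 G-Sham arrays. Sdhc in G-Surgery replicate 3 was high, at -0.53 (others -0.92 to -0.88). The mean of the muscle markers was also lowest in its group for each of the 3 low mice, and its part in these values was not tested.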

How the results depend on the processing

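The median of members minus the median of all probes kept its sign under every alternative run in all 4 comparisons, with ranges over mice left out of 0.26 to 0.64 (FLT-Sham versus G-Sham), -0.86 to -0.48 (FLT-Surgery versus G-Surgery), -0.56 to -0.093 (G-Surgery versus G-Sham) and -1.70 to -1.39 (FLT-Surgery versus FLT-Sham). Counts past the cut-off did not hold. For FLT-Sham versus G-Sham the count of 0 became 11 with array weights and 0 to 1 over mice left out. For FLT-Surgery versus G-Surgery the count of 1 became 3 with normexp and loess, 0 after median-centring, 4 with both channels above background (39 members tested), 3 with all 15 arrays in the fit, 10 with slide as a block, 10 with array weights and 0 to 12 over mice left out. For G-Surgery versus G-Sham mice left out gave 0 to 2. For FLT-Surgery versus FLT-Sham the count of 17 became 8 with no filter on dim probes, 34 with all arrays in the fit, 2 with slide as a block, 37 with array weights and 1 to 35 over mice left out. For the interaction the count of 2 became 1 with a second loess, 5 with normexp and loess, 0 after median-centring, 6 with both channels above background, 1 with slide as a block, 35 with array weights and 1 to 29 over mice left out. Cox8b minus Cox8a in G-Surgery versus G-Sham, -0.37, ranged from -1.14 to 0.56 and turned sign without G-Surgery replicate 1 (0.56) or G-Sham replicate 5 (0.070). Except for the mice named, the cause was not tested.

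With replicate number as a block, the count past the cut-off was 0 in FLT-Surgery versus G-Surgery and 0 in G-Surgery versus G-Sham. Same-numbered mice did not deviate together (correlations of -0.36, -0.19 and 0.24 in the first and -0.16 to 0.35 in the second), so the numbers do not pair them. No such block was run for FLT-Sham versus G-Sham, which share 1 number, or for FLT-Surgery versus FLT-Sham, which share none. A block for scan date was not run, since it equals leaving out G-Sham replicate 4. For the 25 genes of the naming rule, 48 results over mice left out and 29 under other alternatives lost the cut-off, all in FLT-Surgery versus FLT-Sham, 23 and 51 gained it, and 679 and 1156 kept their side. Uqcr11, outside that rule, lost it in FLT-Surgery versus G-Surgery under 8 of 20 alternatives: a second loess, median-centring, the replicate block and without 5 of the 7 mice. Slides, with as few as 1 mouse a group, limit the within-slide values.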
